A study of Mus musculus with 12 samples.

Results

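The Krüppel-like factors (KLFs) examined here are *Klf2*, *Klf3*, *Klf4*, *Klf6*, *Klf7*, *Klf9*, *Klf10*, *Klf11*, *Klf13* and *Klf16*. They were chosen by name from the TPM table of the study, and all 10 were found among its 15651 genes. The libraries came from c-Kit-enriched spleen cells of moribund mice with acute myeloid leukemia (AML), 3 *D/F* mice (Dnmt3afl/fl, Flt3ITD/ITD, Mx1Cre) and 3 *T/F* mice (Tet2fl/fl, Flt3ITD/ITD, Mx1Cre). The cells of each mouse were divided and kept for 6 hours with CCS1477, an inhibitor that binds the bromodomains of the acetyltransferases p300 and CBP, or with its vehicle DMSO. The dose of CCS1477 was 4 μM for *D/F* cells and 2 μM for *T/F* cells, which gave 12 libraries in 4 groups of 3. All mice carried the *Flt3* internal tandem duplication and the Mx1Cre transgene, which the study left uninduced so that the floxed alleles were lost in part or in full through leaky Cre activity, and no group had wild-type cells. The mice were of C57BL6/J background, and all cells were grown in serum with stem cell factor, IL6 and IL3.

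KLFs are transcription factors whose zinc fingers bind GC-rich and CACCC sequences, the same kind of site that the related SP factors bind. The proteins outside the zinc fingers divide the family into activators that recruit histone acetyltransferases such as p300 and CBP (*Klf2*, *Klf4*, *Klf6* and *Klf7*), a repressor that recruits CtBP (*Klf3*) and repressors that recruit SIN3A (*Klf9*, *Klf10*, *Klf11*, *Klf13* and *Klf16*). In blood cells, KLF2 is known for quiescence and trafficking of lymphocytes and for restraint of myeloid activation, and KLF4 for monocyte differentiation.

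Values are TPM, a length-normalized share of the RNA of a library. No read depth can be recovered from TPM, and no spike-in is recorded. In these bulk samples, fewer cells of a type and less RNA per cell cannot be told apart. Tests used limma on log2(TPM + 1), with p-values adjusted by the Benjamini-Hochberg method over all genes tested, and a gene passed at an adjusted p under 0.05. Cells with the same replicate number came from the same mouse, so the fit with the mouse as a block is given for a KLF gene wherever it changed the call, and for other gene lists as a count. Both libraries of *D/F* mouse 2 stood apart, with correlations across genes of 0.945 to 0.956 to the other *D/F* replicates, against 0.978 to 0.982 between those. *Dnmt3a* overlapped between the genotypes in DMSO, with 29.3, 55.7 and 33.1 TPM in *D/F* and 39.9, 41.9 and 53.9 TPM in *T/F*, so its TPM did not check the *D/F* label. *Tet2* was 41.9, 38.3 and 43.4 TPM in *D/F* and 30.0, 35.8 and 34.4 TPM in *T/F*, without overlap.

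With CCS1477 the makeup of the KLF family changed. Its summed TPM had a higher mean with CCS1477 in both genotypes but overlapped between treatments. *Klf2* and *Klf3* rose, and *Klf9* and *Klf16* fell, over both genotypes. In the *T/F* fit *Klf4* also passed as lower and *Klf11* as higher. *Klf11* passed in *D/F* too with the mouse as a block. No KLF gene passed the test of a difference between the genotypes' responses. *Klf10* and *Klf13* did not pass the test in any comparison of the inhibitor with DMSO. In the *D/F* fit 1 of the 10 genes passed, *Klf9*, where 11.6% of all genes tested did, and this became 4 with the mouse as a block, where 39.3% of all genes did. In the *T/F* fit 6 of the 10 passed, where 43.4% of all genes did. Of these, 3 were higher and 3 lower, where 25.8% and 17.6% of all genes were, and with the mouse as a block 6 passed again, where 54.1% of all genes did. In the fit over both genotypes 4 of the 10 passed, 2 higher and 2 lower, where 45.3% of all genes did, 25.8% higher and 19.6% lower. This became 7 with the mouse as a block, where 60.3% of all genes did. These counts are read beside the background and not as particular to the family. The log2 fold changes of the 10 genes had a median of -0.01 for *D/F* and 0.12 for *T/F*, beside 0.06 and 0.07 over all genes tested.

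**Figure D1:**
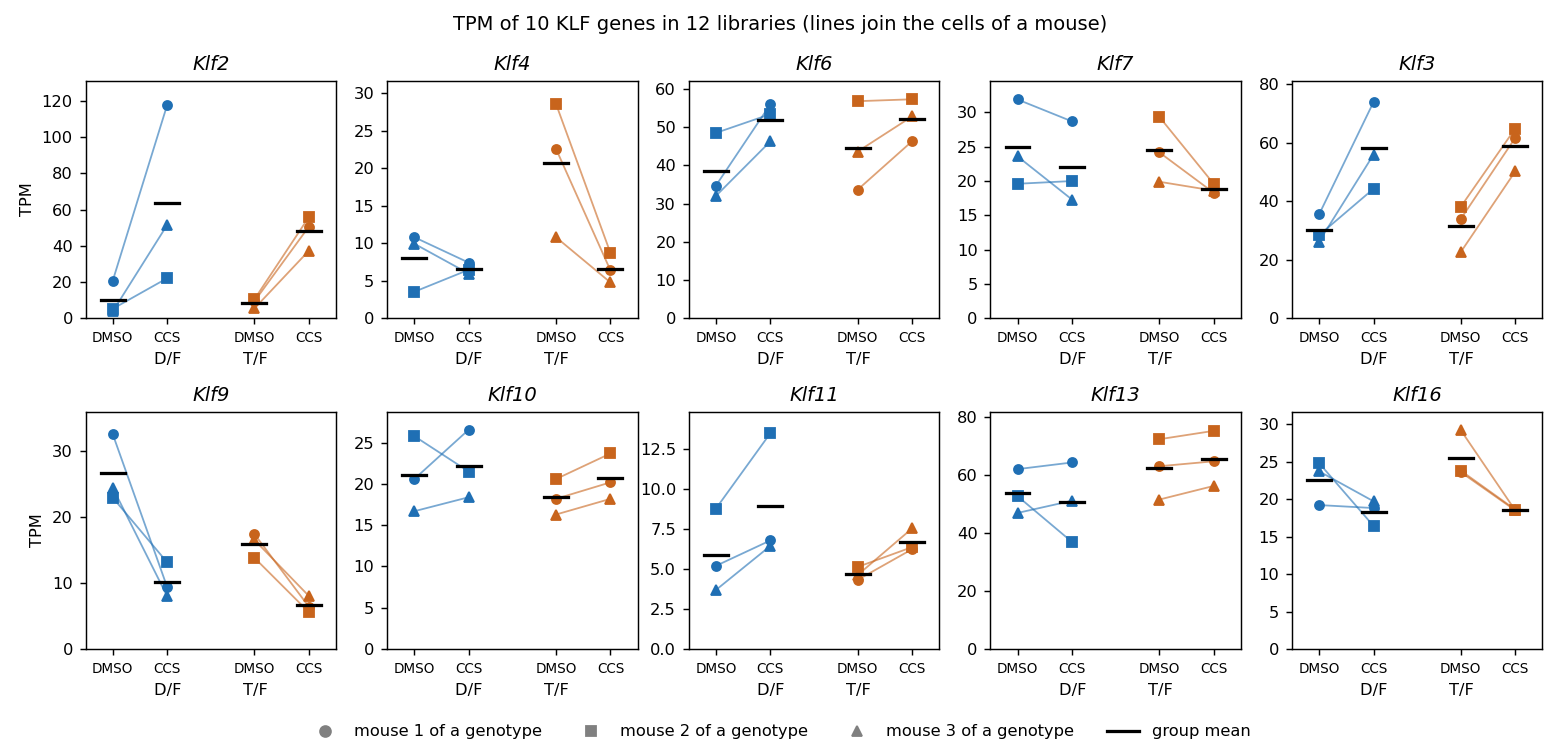
TPM of the 10 KLF genes (vertical axes, linear and starting at 0) in DMSO and CCS1477 for *D/F* (blue) and *T/F* (orange) cells, with a marker shape per mouse, lines joining the cells of a mouse and black bars for group means (n = 3). *Klf2* and *Klf3* climb and *Klf9* falls in all 6 mice, while *Klf10* and *Klf13* overlap between treatments in both genotypes.

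Before the inhibitor, *Klf13*, the most abundant KLF transcript in both leukemias, averaged 53.9 ± 7.63 TPM in *D/F* and 62.3 ± 10.4 TPM in *T/F* (SD, n = 3). *Klf6* followed with 38.4 ± 8.82 and 44.7 ± 11.6 TPM, and *Klf3* with 30.0 ± 4.86 and 31.5 ± 8.01 TPM. *Klf2* ranked 8 in *D/F* and 9 in *T/F*, and *Klf11* was the lowest in both. In *D/F* DMSO cells all 9 neighbouring pairs in this order overlapped between libraries, and in *T/F* DMSO cells 7 of 9 did. The exceptions in *T/F* were *Klf9*, above *Klf2* in every library, and *Klf2*, above *Klf11* in every library.

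With CCS1477 the order changed at both ends. By mean, *Klf2* reached rank 1 in *D/F*, at 63.7 ± 48.8 TPM (SD, n = 3), and rank 4 in *T/F*, at 47.9 ± 9.58 TPM. In *D/F* mouse 1 it was 118 TPM. In *D/F* mice 2 and 3 *Klf3* was the higher of the pair, at 44.3 and 56.0 TPM against 22.1 and 51.6 TPM. *Klf2*, *Klf3*, *Klf6* and *Klf13* then formed an upper tier in both genotypes, and the lowest of the 4 by mean lay above the next gene, *Klf10*, in every library. The exception to the tier was *Klf2* in *D/F* mouse 2, whose 22.1 TPM lay within the range of *Klf10*. *Klf4*, *Klf9* and *Klf11* formed a lower tier, and *Klf16*, the gene just above them, exceeded the next in every library. Within each tier, neighbours overlapped. The share of *Klf2* in the summed TPM of the 10 genes went from 3.83% ± 3.25 to 18.7% ± 9.89 in *D/F* and from 3.21% ± 0.682 to 15.7% ± 1.78 in *T/F* (SD, n = 3). The share of *Klf9* went from 11.0% ± 1.28 to 3.47% ± 1.60 and from 6.34% ± 1.53 to 2.25% ± 0.653. The mean of the sum itself went from 241 ± 31.1 to 313 ± 85.4 TPM in *D/F* (SD, n = 3). In *T/F* it went from 257 ± 39.7 to 302 ± 32.0 TPM. The treatments overlapped, and the change of the sum was not tested. *D/F* libraries held 211 to 273 TPM in DMSO and 248 to 409 TPM in CCS1477, and *T/F* libraries 220 to 299 TPM and 272 to 336 TPM.

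**Figure D2:**
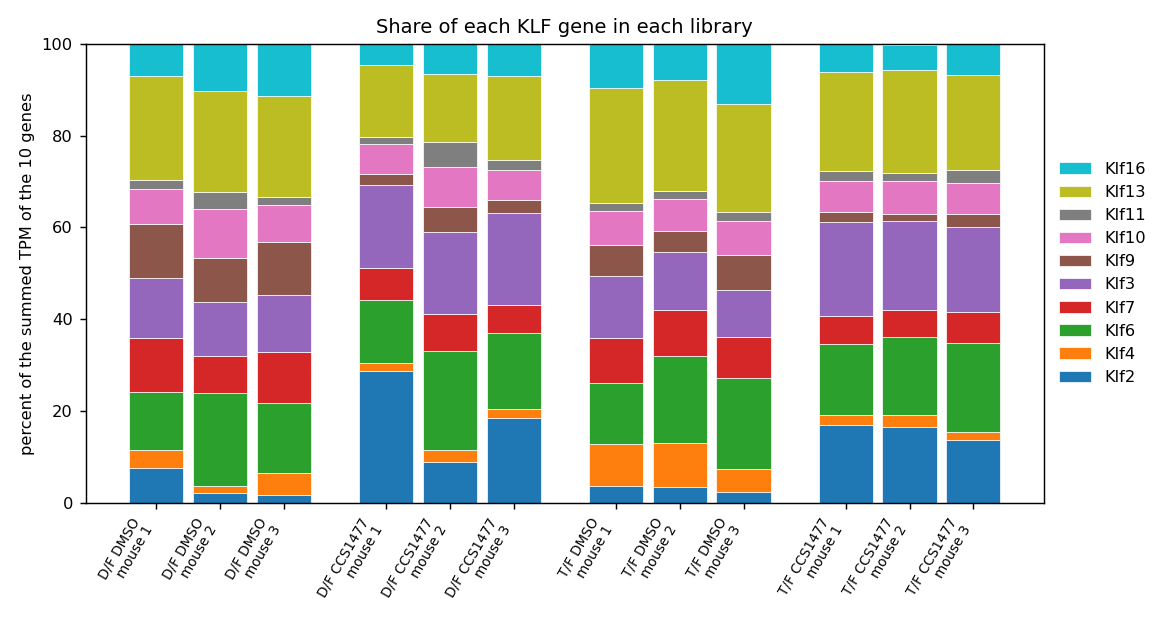
Each bar is a library, and its segments are the percent of the summed TPM of the 10 KLF genes (vertical axis) that each gene supplied. The *Klf2* segment at the bottom widens from 1.76% to 7.57% in *D/F* DMSO libraries to between 8.92% and 28.7% with CCS1477, and the *Klf9* segment narrows.

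Among the activators, *Klf2* had the largest response of the 10 genes. It is encoded at chr8:72319033-72321656 (GRCm38, plus strand), the shortest span of the family here at 2624 bases. The promoter sequences of *Klf2* and, with the genes that follow, of *Klf4*, *Klf3* and *Klf9* are shown because these genes had the largest changes. Sequences are from RefSeq (GRCm38.p6), read 5′ to 3′ on the strand of the gene, and end at or just before the start of the annotated gene. Capitals mark GGGCGG, known as the GC box, the CACCC box and the CCAAT box (named by their letters), CACGTG, known as the E-box, TGACG, known as the core of a cAMP response element, and a MEF2-like motif, which is CTA and TAG set 4 bases apart. Each was searched on both strands, and a base in more than 1 motif is capitalized once. For *Klf2*, chr8:72318812-72319032, plus strand:
Klf2: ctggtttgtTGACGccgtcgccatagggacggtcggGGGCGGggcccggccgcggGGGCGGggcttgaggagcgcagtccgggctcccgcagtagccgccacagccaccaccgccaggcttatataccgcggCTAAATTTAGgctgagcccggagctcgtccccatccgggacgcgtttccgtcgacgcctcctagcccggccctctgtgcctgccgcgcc
The 250 bases before the RefSeq start held 2 GC boxes, 1 CACCC box, 1 TGACG and 1 MEF2-like motif, CTAAATTTAG, at 118 to 109 bases before the start. The CACCC box, at 19 to 15 bases before the start, is in the last 29 bases, which lie inside the annotated gene and are not shown. A MEF2-like match was in 3.2% of 32851 RefSeq promoters and in 1 of the 8 KLF promoters read. MEF2 factors are known activators of *Klf2* in other cells, and a match in letters is only a description.

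*Klf2* in *D/F* cells was 20.7, 5.17 and 3.71 TPM in DMSO and 118, 22.1 and 51.6 TPM with CCS1477 (mice 1, 2 and 3). Mouse 1 was highest in both treatments, and the lowest treated library lay just above the highest control. The rise was 5.68-fold, 4.28-fold and 13.9-fold within the mice, which made a log2 fold change of 2.61 (standard error 0.77, 95% interval 0.77 to 4.46). The adjusted p from limma was 0.0754, and 0.00983 with the mouse as a block. In *T/F* cells *Klf2* was 9.29, 10.4 and 5.36 TPM in DMSO and 50.6, 55.9 and 37.3 TPM with CCS1477. These groups lay far apart, and the rise within the mice was 5.44-fold, 5.37-fold and 6.96-fold. The *T/F* log2 fold change was 2.41 (standard error 0.26, limma adjusted p = 0.00142). Over both genotypes it was 2.51 (standard error 0.43, limma adjusted p = 0.000669), and the gene was higher in 6 of 6 mice. Without *D/F* mouse 2 it was 2.63 (limma adjusted p = 0.000557).

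*Klf4*, the activator known for monocyte differentiation, is at chr4:55527143-55532466 (minus strand). Its promoter, chr4:55532476-55532725, minus strand, held 4 GC boxes, of which a pair shares a base, 1 E-box and 1 TGACG, and no CACCC box:
Klf4: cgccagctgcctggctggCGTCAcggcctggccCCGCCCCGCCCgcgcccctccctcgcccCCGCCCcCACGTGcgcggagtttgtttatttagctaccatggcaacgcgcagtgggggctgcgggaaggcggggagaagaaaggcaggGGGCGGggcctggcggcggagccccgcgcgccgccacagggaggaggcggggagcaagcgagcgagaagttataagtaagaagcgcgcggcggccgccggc
In *T/F* cells *Klf4* was 22.6, 28.6 and 10.8 TPM in DMSO and 6.37, 8.70 and 4.76 TPM with CCS1477. All treated libraries were below all controls, and mouse 3 was lowest in both treatments. *Klf4* fell there by 1.44 on the log2 scale (standard error 0.38, limma adjusted p = 0.0259). This call was lost without *T/F* mouse 1 (-1.32, limma adjusted p = 0.156) and without mouse 2 (-1.36, limma adjusted p = 0.0901). In these settings 3473 of 15254 and 3192 of 15253 genes passed, beside 6620 of 15256 with all *T/F* mice. In *D/F* cells the DMSO values were 10.8, 3.52 and 9.93 TPM and the CCS1477 values 7.40, 6.46 and 5.94 TPM. The *D/F* groups overlapped because mouse 2 had the lowest control and was the 1 mouse of 6 in which the gene was not lower with the inhibitor. Its change in *D/F* was -0.14 on the log2 scale (95% interval -1.05 to 0.77, limma adjusted p = 0.842), and it ranged from -0.57 to 0.12 with a mouse left out, the lowest without mouse 2 (limma adjusted p = 0.0563). Over both genotypes *Klf4* did not pass (log2 fold change -0.79, limma adjusted p = 0.0752), and it passed without *D/F* mouse 2 (-1.09, limma adjusted p = 0.00846). With CCS1477 both genotypes had nearly the same mean, 6.60 ± 0.74 TPM in *D/F* and 6.61 ± 1.98 TPM in *T/F* (SD, n = 3), from DMSO means of 8.09 ± 3.98 and 20.7 ± 9.07 TPM.

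The other activators moved less. *Klf6*, a widely expressed factor at chr13:5861482-5870394 (plus strand), was 34.7, 48.5 and 32.0 TPM in *D/F* DMSO cells and 56.0, 53.4 and 46.3 TPM with CCS1477. In *T/F* cells it was 33.6, 56.8 and 43.6 TPM and then 46.3, 57.3 and 52.8 TPM. It was higher in 6 of 6 mice, but the treatments overlapped in both genotypes. Over both genotypes *Klf6* had a log2 fold change of 0.34 (limma adjusted p = 0.0663), and this passed with the mouse as a block (limma adjusted p = 0.0156). *Klf7*, at chr1:64029447-64122282 (minus strand) and with the longest span of the 10 at 92836 bases, was 24.2, 29.4 and 19.9 TPM in *T/F* DMSO cells and 18.3, 19.6 and 18.6 TPM with CCS1477. The treated *T/F* libraries were all lower, by a narrow margin. *Klf7* had a log2 fold change of -0.35 in *T/F* (limma adjusted p = 0.0965) and, with overlapping groups, of -0.18 in *D/F* (limma adjusted p = 0.683). Over both genotypes it was -0.27 (limma adjusted p = 0.171), which passed with the mouse as a block (limma adjusted p = 0.0325).

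*Klf3*, the CtBP-binding repressor, rose with *Klf2*. It is at chr5:64803388-64832901 (plus strand). The RefSeq window of 250 bases held 6 GC boxes and 5 CACCC boxes, the most of both kinds among the 8 KLF promoters read, and its 117 bases before the annotated gene, chr5:64803271-64803387, are
Klf3: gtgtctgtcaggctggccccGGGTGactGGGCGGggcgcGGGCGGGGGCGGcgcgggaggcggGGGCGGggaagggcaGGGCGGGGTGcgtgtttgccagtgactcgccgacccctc
In *D/F* cells *Klf3* was 35.5, 28.4 and 26.2 TPM in DMSO and 74.0, 44.3 and 56.0 TPM with CCS1477. In *T/F* cells it was 33.9, 38.1 and 22.6 TPM in DMSO and 61.7, 64.9 and 50.2 TPM with CCS1477. The treatments did not overlap in either genotype, and the 6 mice rose between 1.56-fold and 2.22-fold. In *D/F* the rise was 0.91 on the log2 scale (standard error 0.23, limma adjusted p = 0.0535), which passed with the mouse as a block (limma adjusted p = 0.0117) and without mouse 2 (1.05, limma adjusted p = 0.0405). In *T/F* it was 0.90 (standard error 0.21, limma adjusted p = 0.0172) and was lost there without mouse 1 (limma adjusted p = 0.0977) or mouse 2 (limma adjusted p = 0.0687). The *T/F* value itself stayed between 0.80 and 0.98 with a mouse left out. The 12 libraries together gave 0.91 (standard error 0.16, limma adjusted p = 0.000674).

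*Klf2* and *Klf3* had the most alike pattern of any pair of the 10 genes. Pearson's r of log2(TPM + 1) was 0.967 over the 12 libraries, which share treatments and mice, and the next pair, *Klf6* and *Klf11*, had 0.624. *D/F* mouse 1 had the highest *Klf2* and *Klf3* of both *D/F* treatments, and *T/F* mouse 3 the lowest of both *T/F* treatments. The lowest value was between *Klf3* and *Klf9*, at -0.814.

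**Figure D3:**
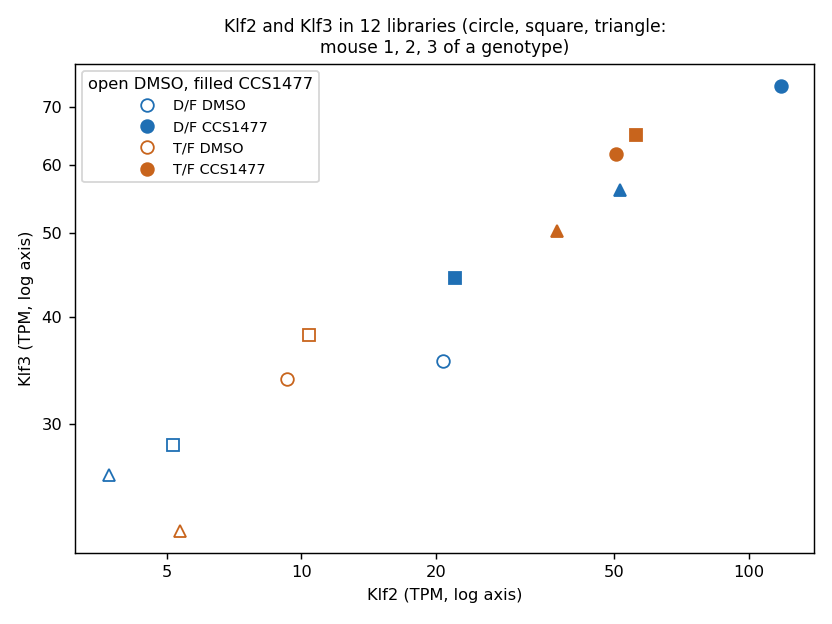
TPM of *Klf3* (vertical, log axis) against TPM of *Klf2* (horizontal, log axis) in 12 libraries, with open symbols for DMSO, filled for CCS1477 and a shape per mouse. Treated libraries lie up and to the right of controls, and within each group the mice with more *Klf2* had more *Klf3* (r = 0.967 over all 12 libraries).

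Among the SIN3A-binding repressors, *Klf9* had the largest change and was the KLF gene that passed in both genotypes without the block. *Klf9*, a factor induced by glucocorticoid and thyroid hormone receptors, is at chr19:23141226-23168134 (plus strand). Its promoter, chr19:23140976-23141225, held 3 CCAAT boxes, of which a pair overlaps, 1 CACCC box, 1 TGACG and no GC box:
Klf9: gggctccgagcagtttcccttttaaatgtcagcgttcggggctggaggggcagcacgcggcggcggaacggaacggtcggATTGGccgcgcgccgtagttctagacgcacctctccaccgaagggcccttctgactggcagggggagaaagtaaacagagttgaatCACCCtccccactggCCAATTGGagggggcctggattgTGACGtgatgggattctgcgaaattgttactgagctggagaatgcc
In *D/F* cells *Klf9* was 32.5, 22.9 and 24.4 TPM in DMSO and 9.35, 13.1 and 7.97 TPM with CCS1477. In *T/F* cells it was 17.4, 13.8 and 16.5 TPM in DMSO and 6.39, 5.57 and 8.02 TPM with CCS1477. Every treated library was below every control of its genotype, and the 6 mice kept between 0.288 and 0.574 of their DMSO level. *Klf9* fell by 1.32 on the log2 scale in *D/F* (standard error 0.23, limma adjusted p = 0.0216), by 1.15 in *T/F* (standard error 0.15, limma adjusted p = 0.00226) and by 1.23 over both genotypes (standard error 0.14, limma adjusted p = 3.8e-05). The *D/F* call was lost without mouse 1 (-1.13, limma adjusted p = 0.225) and without mouse 3 (-1.23, limma adjusted p = 0.245), settings in which 0 of 15539 and 0 of 15545 genes passed limma's adjusted p while 2494 and 2330 had an unadjusted p under 0.05. Without mouse 2 the *D/F* value was -1.60 (limma adjusted p = 0.0167).

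*Klf16*, a repressor that binds GC boxes, is at chr10:80567124-80577321 (minus strand). It was 23.6, 23.8 and 29.2 TPM in *T/F* DMSO cells and 18.5, 18.6 and 18.5 TPM with CCS1477. The treated *T/F* libraries were lower and almost equal to each other. *Klf16* fell there by 0.44 on the log2 scale (standard error 0.10, limma adjusted p = 0.0139), lost without mouse 1 (limma adjusted p = 0.0702) or mouse 2 (limma adjusted p = 0.0817). In *D/F* cells it was 19.2, 24.8 and 23.7 TPM and then 18.8, 16.4 and 19.7 TPM, a log2 fold change of -0.28 with overlap of the groups (limma adjusted p = 0.3). Over both genotypes *Klf16* fell by 0.36 on the log2 scale (standard error 0.09, limma adjusted p = 0.0064) and was lower in 6 of 6 mice.

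*Klf11* and *Klf10* encode related SIN3A-binding repressors. *Klf11*, at chr12:24651274-24662789 (plus strand), was 4.32, 5.13 and 4.62 TPM in *T/F* DMSO cells and 6.24, 6.37 and 7.54 TPM with CCS1477. These groups did not overlap, and the log2 fold change was 0.44 (standard error 0.10, limma adjusted p = 0.0136). This call was lost without any 1 of the *T/F* mice (limma adjusted p from 0.0598 to 0.0748) and when the spread was shared over all 4 groups (limma adjusted p = 0.309). In *D/F* cells *Klf11* was 5.20, 8.78 and 3.69 TPM and then 6.79, 13.5 and 6.45 TPM. Mouse 2 was highest in both treatments, and each mouse rose while the groups overlapped. The *D/F* log2 fold change of 0.52 (limma adjusted p = 0.386) passed with the mouse as a block (limma adjusted p = 0.0261), as did the 0.48 over both genotypes (limma adjusted p = 0.0654 without and 0.00074 with the block). *Klf10*, at chr15:38291463-38300706 (minus strand), lay between 16.3 and 25.8 TPM in DMSO libraries and between 18.2 and 26.6 TPM in treated ones. *Klf10* changed by 0.08 on the log2 scale in *D/F* (95% interval -0.45 to 0.61, limma adjusted p = 0.852) and 0.16 in *T/F* (95% interval -0.15 to 0.48, limma adjusted p = 0.35).

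*Klf13*, at chr7:63886351-63938915 (minus strand) and known for activating *Ccl5* in T cells, ranged from 46.9 to 72.3 TPM in DMSO and from 36.9 to 75.2 TPM with CCS1477. The treatments overlapped in both genotypes. *Klf13* had a log2 fold change of -0.11 in *D/F* (95% interval -0.68 to 0.46, limma adjusted p = 0.8) and 0.07 in *T/F* (95% interval -0.32 to 0.47, limma adjusted p = 0.744). Its share of the summed KLF TPM went from 22.3% to 16.3% in *D/F* and from 24.2% to 21.6% in *T/F*, as *Klf2* and *Klf3* took more.

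**Figure D4:**
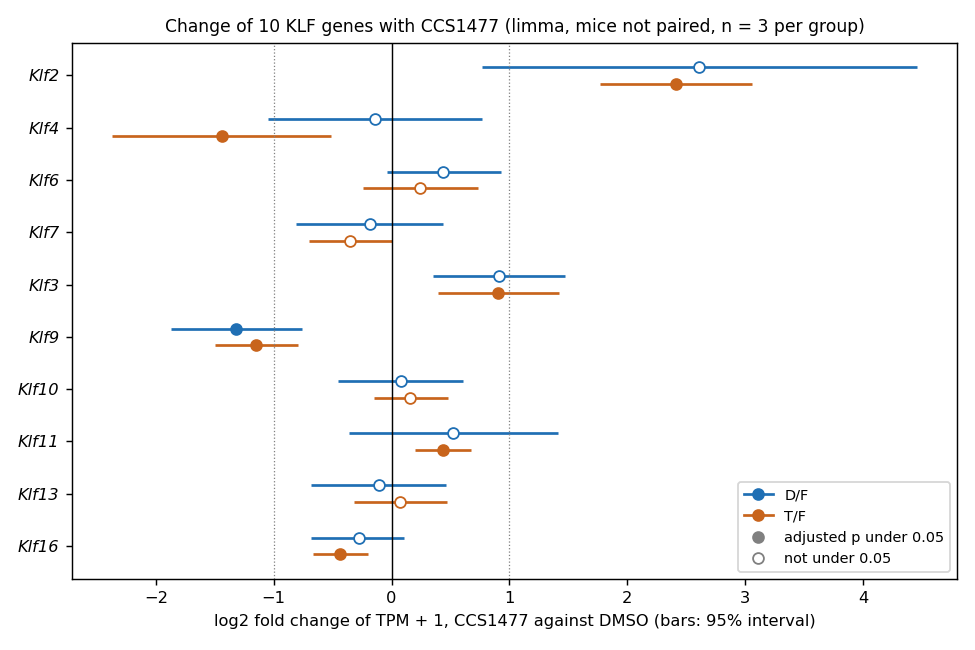
Log2 fold change of TPM + 1 with CCS1477 against DMSO (horizontal axis) for each KLF gene in *D/F* (blue) and *T/F* (orange), with 95% intervals from limma (n = 3 per group, mice not paired) and filled points at an adjusted p under 0.05. Dotted lines mark 2-fold, and *Klf2* has the widest interval, 0.77 to 4.46 in *D/F*.

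By overlap of the libraries alone, 2 of the 10 genes were higher in all treated *D/F* libraries and 1 was lower, where 19.9% and 16.7% of all genes tested were. In *T/F*, 3 were higher and 4 were lower, where 33.5% and 22.6% of all genes were. Above 2-fold at an adjusted p under 0.05, 1 KLF gene passed in *D/F* (*Klf9*, against 7.28% of all genes) and 3 in *T/F* (*Klf2*, *Klf4* and *Klf9*, against 7.33%).

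The responses of the genotypes were compared by the interaction of treatment and genotype, although the dose differed, so that genotype and dose cannot be told apart. None of the 10 genes passed limma's adjusted p, a count of 0, as with all 15583 genes (0%), and 1 KLF gene and 659 genes had an unadjusted p under 0.05. That gene was *Klf4*, with a difference of -1.30 (*T/F* minus *D/F*, 95% interval -2.58 to -0.02, limma unadjusted p = 0.0467, adjusted p = 1). It was -0.87 without *D/F* mouse 2 (limma adjusted p = 0.753). The intervals of the other genes were wide, from -2.20 to 1.79 for *Klf2* and from -0.73 to 0.72 for *Klf3*, so equal responses were not shown.

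In DMSO alone, 0 of the 10 genes differed between the genotypes at limma's adjusted p, where 0.0328% of all genes tested did, and 2 had an unadjusted p under 0.05. *Klf9* was lower in every *T/F* than in every *D/F* library, a separation that 12.6% of all genes had in either direction (log2 difference -0.70, standard error 0.17, limma unadjusted p = 0.00661, adjusted p = 0.522). *Klf4* had a log2 difference of 1.27 (standard error 0.49, limma unadjusted p = 0.0392, adjusted p = 0.755), and its lowest *T/F* library, at 10.8 TPM, met the highest *D/F* library. With CCS1477 the *T/F* minus *D/F* difference was -0.53 for *Klf9* (limma adjusted p = 0.444) and -0.03 for *Klf4* (limma adjusted p = 0.966).

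The other KLF and SP genes changed mostly upward. Of 16 such genes, 8 were in the table, and 6 rose and 0 fell over both genotypes, where 25.8% of all genes rose and 19.6% fell. In *D/F* 2 rose and 0 fell (11.6% of all genes passed), and with the mouse as a block 5 rose (39.3% passed). In *T/F* 6 rose and 0 fell, where 25.8% of all genes rose and 17.6% fell, and with the block 6 rose and 1 fell (54.1% passed). The gene that fell under the block was *Klf1*, the erythroid KLF, named after its value was seen (log2 fold change -0.60, limma adjusted p = 0.0461 with the block and 0.221 without). The 8 log2 fold changes had medians of 0.59 for *D/F* and 0.70 for *T/F*. *Sp4*, an SP activator, went from 6.44 ± 2.22 to 23.4 ± 6.69 TPM in *D/F* cells, while *T/F* cells went from 5.94 ± 0.354 to 15.4 ± 1.68 TPM (SD, n = 3). Over both, *Sp4* rose by 1.48 on the log2 scale (limma adjusted p = 4.34e-05). *Klf5*, an activator known from proliferating epithelium, rose by 1.19 on the log2 scale (limma adjusted p = 0.000858). *Klf8*, which like *Klf3* encodes a CtBP-binding repressor, rose by 0.89 (limma adjusted p = 0.000621). *Klf12*, from the same subgroup, averaged 0.737 TPM in *D/F* and 0.353 TPM in *T/F* DMSO cells, under the filter of 1 TPM. It was tested only through its CCS1477 means, 2.84 and 1.59 TPM, so the filter favoured a rise. Its log2 fold change was 0.98 (limma adjusted p = 0.037), and it is counted in the 6 that rose.

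The cofactors through which KLFs act also moved upward. Their list also held *Wwp1*, *Fbxw7* and *Smurf1*, which encode ubiquitin ligases and not cofactors. All 13 listed were measured, and 8 rose and 0 fell over both genotypes (25.8% and 19.6% of all genes), with a median log2 fold change of 0.33. *Wwp1* was among these 8 (log2 fold change 0.33, limma adjusted p = 0.00945). With the mouse as a block 10 rose (60.3% of all genes passed). In *D/F* 1 of 13 rose (11.6% passed), and 5 with the block (39.3%). In *T/F* 9 rose (25.8% of all genes rose), and 12 with the block (54.1% of all genes passed). The genes of the drug targets were among them. *Crebbp*, which encodes CBP, rose by 0.79 on the log2 scale (limma adjusted p = 7.54e-05), *Ep300*, which encodes p300, by 0.75 (limma adjusted p = 8.32e-06), and *Kat2b*, which encodes the acetyltransferase PCAF, by 0.73 (limma adjusted p = 0.000423).

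Genes known to regulate KLF transcription went both ways. Of 14 listed, 13 were measured, and 5 rose and 2 fell over both genotypes, near the shares of all genes (25.8% and 19.6%). With the mouse as a block 8 rose and 2 fell (60.3% of all genes passed). In *D/F* 2 rose and 1 fell (11.6% passed), and 2 and 2 with the block (39.3%). In *T/F* 7 rose and 2 fell (25.8% and 17.6%), and 10 and 2 with the block (54.1%). *Foxo1*, whose product activates *Klf2* in lymphocytes, rose by 1.56 on the log2 scale (limma adjusted p = 2.36e-05). *Smad4*, the common mediator of TGF-beta signals, rose by 0.75 (limma adjusted p = 5.51e-05). *Mef2d* and *Mef2c*, of the MEK5-ERK5-MEF2 route to *Klf2*, fell by 0.77 (limma adjusted p = 0.000282) and 0.62 (limma adjusted p = 0.0212), while *Mef2a* of the same route rose by 0.44 (limma adjusted p = 0.00517).

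Of 14 genes that KLFs are known to act on, 13 were measured, and 1 rose and 4 fell over both genotypes, where 25.8% of all genes rose and 19.6% fell. The median log2 fold change was -0.36, beside 0.07 over all genes. With the mouse as a block 2 rose and 5 fell (60.3% of all genes passed). In *D/F* 1 rose and 1 fell (11.6% passed), and 1 and 6 with the block (39.3%). In *T/F* 2 rose and 3 fell (25.8% and 17.6%), and 3 and 4 with the block (54.1%). *Ccnd1*, the cyclin D1 gene, fell by 1.31 on the log2 scale (limma adjusted p = 0.00207), and *Cdkn1b*, the cell cycle inhibitor p27, rose by 0.94 (limma adjusted p = 1.58e-05). *Trp53* fell by 0.65 (limma adjusted p = 0.000422). *S1pr1* rose in *T/F* (0.50, limma adjusted p = 0.0114) but did not pass over both genotypes (0.17, limma adjusted p = 0.563). Its *T/F* means were 0.91 TPM in DMSO, under the filter of 1 TPM, and 1.71 TPM with CCS1477. In *T/F* it was thus tested only through its CCS1477 mean, so the filter favoured a rise, and it is counted in the 2 that rose. In *D/F* its mean went from 1.37 to 0.934 TPM, with overlap.

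**Figure D5:**
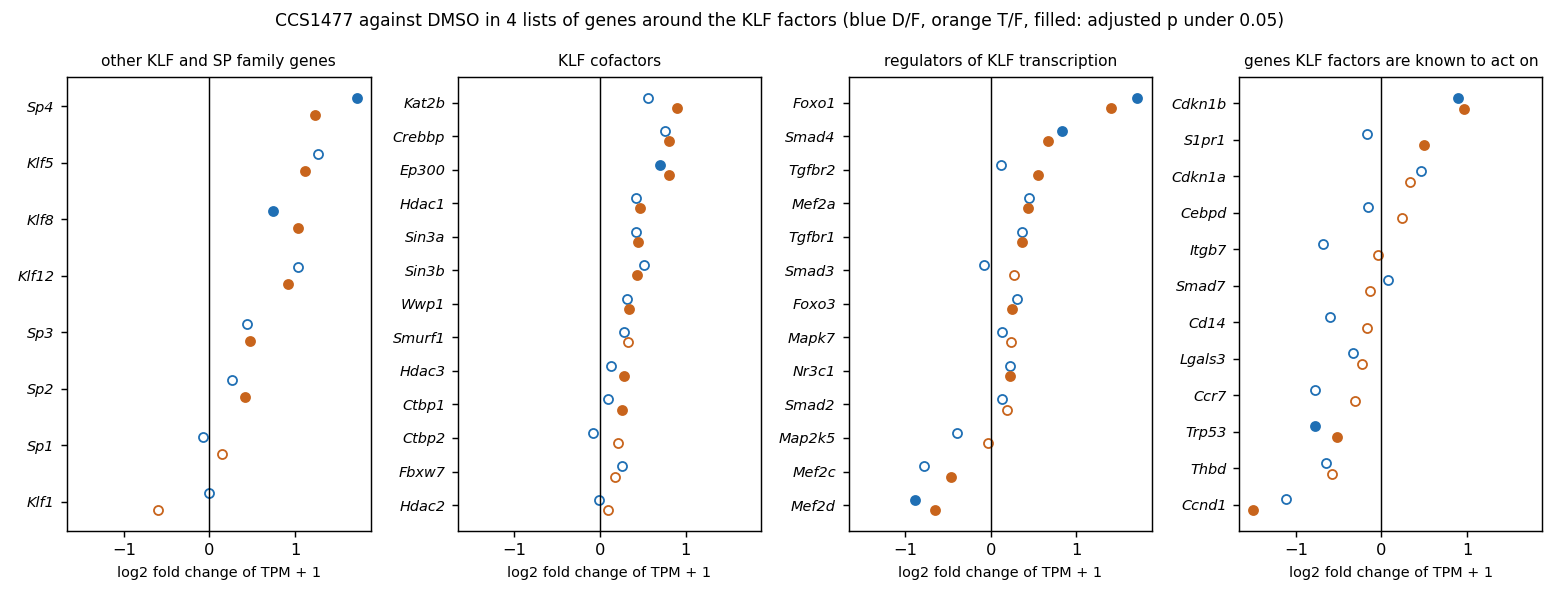
Log2 fold change of TPM + 1 with CCS1477 against DMSO (horizontal axes) for genes around the KLFs in 4 lists (12 of the 13 genes that KLFs act on are drawn), in *D/F* (blue) and *T/F* (orange), filled where the adjusted p was under 0.05. Over both genotypes 6 of 8 KLF and SP relatives passed, with *Klf12* among them, and 8 of 13 genes of the cofactor list. All of these rose, where 25.8% of all genes did.

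Some markers of the cells themselves moved with the treatment. The summed TPM of all 8 leukemic progenitor markers (*Kit*, *Flt3*, *Cd34*, *Mpo*, *Elane*, *Prtn3*, *Ctsg* and *Myb*) was 4031 to 10352 in *D/F* and 4403 to 6624 in *T/F* with DMSO, and 882 to 4338 and 1756 to 3085 with CCS1477. The 7 monocyte and macrophage markers, all measured, summed to 471 to 1279 and 458 to 636 TPM with DMSO and to 177 to 597 and 225 to 327 TPM with CCS1477. The summed TPM of the 7 neutrophil markers overlapped. It was 2802 to 9951 and 2530 to 7577 with DMSO and 1710 to 9764 and 2680 to 7260 with CCS1477. Within it, *Camp*, *Mmp8* and *Lcn2* were lower with CCS1477 in every mouse, and *Mmp8* without overlap in *T/F*. *S100a8*, *S100a9*, *Ltf* and *Ngp* overlapped between treatments in both genotypes. *D/F* mouse 2 had the lowest neutrophil sums of *D/F* in both treatments. Of 8 T and NK cell markers 5 were measured, without *Cd3e*, *Cd3g* and *Trac*, and their sum was 85.1 to 185 TPM in DMSO and 33.2 to 48.1 TPM in treated libraries. *Nkg7* carried most of the sum in DMSO, at 65.5 to 159 TPM against 5.49 to 26.9 TPM in treated libraries, while *Cd3d*, *Cd4* and *Cd8a* overlapped between treatments in both genotypes. *Lck* was lower without overlap in *D/F*, at 8.59 to 22.4 TPM in DMSO and 3.02 to 7.36 TPM with CCS1477, and overlapped in *T/F*. The 2 measured B cell markers, *Cd79b* and *Pax5*, summed with DMSO to 10.8 to 23.2 TPM for *D/F* and 16.8 to 20.5 TPM for *T/F*, and with CCS1477 to 4.13 to 9.54 TPM and 11.3 to 14.2 TPM. *Cd79b* was lower without overlap in both genotypes. *Pax5*, at most 2.38 TPM in any library, was higher with CCS1477 in *D/F* and lower in *T/F*, both without overlap. Of 4 endothelial markers *Pecam1* alone was measured, at 56.2 to 149 TPM in DMSO and 15.1 to 24.6 TPM in treated libraries. Erythroid markers, 5 of 6 measured, summed to 10.8 to 27.7 TPM over the 12 libraries, and megakaryocyte markers, 3 of 4 measured, to 32.6 to 199 TPM in DMSO and 20.1 to 63.9 TPM in treated libraries. The part of these shifts in the KLF changes was not tested.

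By the correlation of log2(TPM + 1) over the 12 libraries, among genes that averaged 5 TPM or more, the genes most like *Klf2* were *Snx25* (r = 0.978), *Adipor1* (0.976) and *Narf* (0.976). For *Klf3* they were *Polm* (0.975), *Add3* (0.974) and *Ugdh* (0.973), and for *Klf9* *Rab3gap2* (0.982), *Rnf125* (0.97) and *Fosl1* (0.963). *Klf4* was closest to *Bst1* (0.915), *Klf6* to *Mcl1* (0.939) and *Klf16* to *Txndc9* (0.947). *Klf13* was closest to *Fkbp1b* (0.953), *Klf7* to *Slc37a4* (0.903) and *Klf10* to *Gm15591* (0.879). The libraries share treatment and mice, so these values describe a pattern only.

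The promoters of the family had features that the choice of genes did not use. RefSeq windows were found for 8 of the 10 genes. Their median GC content was 71.4%, beside 52.4% over 32851 promoters, and their median number of CpG was 23.5, beside 6. The 32851 promoters were not limited to genes expressed here, so these differences are not read as particular to the family. The *Klf7* window lay wholly inside the annotated gene, and those of *Klf3* and *Klf11* had 133 and 97 of 250 bases inside it. Among all promoters, 32.7% held the GC box, 52.0% the CACCC box, 33.8% the CCAAT box, 6.02% the E-box and 17.8% TGACG. The TATA box TATAAA was in 12.4% of all promoters and in 0 of the 8. The genes themselves were short, with a median span of 10857 bases and a median of 4 exons, beside 18684 bases and 7 exons over 14851 expressed genes.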

How the data were processed

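Gene-level TPM of 12 libraries (3 mice per genotype, each with DMSO and CCS1477) were deposited by the authors. The labels name both ribosomal RNA depletion and an mRNA library kit, and which was used is not clear from them. The submitters' processing notes name kallisto and the mm10 build. The study's methods name AltAnalyze. No gene with all libraries under 2 TPM is in the table, and libraries summed to 914204 to 931697 TPM. TPM holds no read numbers, so depth is unknown, no count model was fitted and no counting interval is given. The precision is the spread between 3 mice.

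All columns were matched to samples by mouse number, genotype and treatment. Differences were tested two-sided with limma (version 3.58.1, R 4.3.3) after a log2 transform of TPM + 1. The eBayes step had no trend, and a gene was tested if it averaged 1 TPM or more in a group compared. This scale understates changes of low genes. Comparisons were CCS1477 against DMSO within each genotype, over both with genotype as a covariate, the interaction in a fit of 4 groups, and the genotypes in DMSO. An exact permutation test of 3 against 3 cannot give a p below 0.1. The samples pair by mouse, from the labels, and the correlation of deviations from the group mean was 0.354 to 0.669 within a mouse and at most 0.141 between mice. The alternatives tried were 0.1 as pseudocount, 5 TPM as filter or none, rescaling to the median gene, quantile normalization, a trend, the block, a shared fit and leaving out each mouse. Levels without each mouse and after rescaling were added after seeing the data.

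Positions are from GENCODE vM21 (GRCm38) and promoters from RefSeq (GRCm38.p6), as windows of 250 bases. All 10 KLF genes are named. From the other lists, genes passing in either genotype could be named, at most 6 per list by their log2 fold change over both genotypes. Not all of these were named, so the named genes are not the top of a list. The genes most like a member are the 3 with the highest correlation. The KLF genes and all lists were chosen with earlier results of these data known, so their counts are descriptions. Some items are not reported here. The fits were tested on simulated data.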

Additional observations from a re-analysis of the deposited data

How the results depend on the processing

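No KLF gene that passed in a comparison changed direction under any alternative run, and of the alternative values of single KLF genes 590 stayed on the same side of the threshold, 18 gained a call and 12 lost one. The 590 include the interaction and the genotypes in DMSO, where no KLF gene passed under any setting. This count is therefore no measure of how stable the calls are. The number of KLF genes passing in *D/F*, 1, became 2 with a filter at 5 TPM, 2 with a trend in eBayes, 3 in the shared fit of 4 groups and 4 with the mouse as a block, and ranged from 0 to 2 with a mouse left out. Above 2-fold the *D/F* number, 1, became 2 in the shared fit and 2 with the block, and ranged from 0 to 2 with a mouse left out. In *T/F* the number, 6, was 6 with the block, 5 in the shared fit and 2 to 5 with a mouse left out. Over all genes, the *T/F* number passing went from 6620 to 3473, 3192 and 5122 without mouse 1, 2 and 3. Over both genotypes it was 4, then 7 with the block and 4 to 7 with a mouse left out, the highest without *D/F* mouse 2. With the mouse as a block the interaction had 0 KLF genes at limma's adjusted p and 1 at an unadjusted p under 0.05. Rescaling each library to its median gene gave 1 gene in *D/F*, 6 in *T/F* and 5 over both. The block changed no other call of a KLF gene than those given beside it. Each genotype has 3 mice, and depth is unknown.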
